A study of Mus musculus with 2 samples.

Results

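The Mir23, Mir27 and Mir24 clusters are a pair of paralogous loci that each hold 3 microRNA genes in the order Mir23, Mir27, Mir24. The Mir23b cluster holds Mir23b, Mir27b and Mir24-1 on chromosome 13, and the Mir23a cluster holds Mir23a, Mir27a and Mir24-2 on chromosome 8. The 6 genes were chosen by name, by matching gene identifiers to the GENCODE M21 annotation, and make up 6 of the 2202 microRNA genes counted. All 6 had at least 10 reads in both libraries. The libraries were made from RNA of under 30 bases from hearts of female B6CASTF1/J mice, an F1 hybrid strain, aged 14 days. They form 1 group of 2 biological replicates, with no treatment and no control, so the data describe levels and the spread between 2 libraries. The label of replicate 1 mentions 3 females and that of replicate 2 a single female, and the labels do not say whether several hearts were pooled for replicate 1.

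MicroRNAs are short RNAs cut from hairpin precursors that guide silencing proteins to messenger RNAs, mainly by pairing of bases 2 to 8, the seed. MicroRNAs of the miR-23 and miR-27 families are known from endothelial cells, where they promote angiogenesis in mice by repressing inhibitors of growth signalling such as Spry2. In mouse hearts miR-27b and miR-23a have been linked to hypertrophy of cardiomyocytes, and miR-24 to the survival of cardiomyocytes after infarction.

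The mature sequences are shown because they set which reads can be told apart between the 2 loci. They are from RefSeq (build GRCm38.p6), which holds an entry for 10 distinct mature arms of the 6 genes, and capitals mark the seed. The hairpins of all 6 genes are the same in RefSeq and in the annotation used for counting.
mmu-miR-23a-3p: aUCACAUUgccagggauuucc
mmu-miR-27a-3p: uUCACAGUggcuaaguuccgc
mmu-miR-27b-3p: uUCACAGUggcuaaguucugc
mmu-miR-24-3p: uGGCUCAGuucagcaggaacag
mmu-miR-24-2-5p: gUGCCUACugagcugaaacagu
mmu-miR-24-1-5p: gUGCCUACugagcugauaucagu

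The 3p arms of the Mir27 and Mir24 pairs were nearly or fully alike, and miR-23b-3p was not compared. Counting from 1 at the 5′ end, miR-27b-3p differed from miR-27a-3p by the single change C19U, outside the seed. miR-24-3p is encoded without any difference by both Mir24-1 and Mir24-2, so a full-length read of it has 2 places of origin. The 5p arms of the Mir24 genes share their first 16 bases and their seed and then diverge. The seeds of miR-23a-3p and miR-27a-3p differ by 1 base, the change U7G. No other mature entry outside the 6 genes has the seed of miR-23a-3p or of miR-27a-3p, whereas 4 others (miR-5124b, miR-6369, miR-6410 and miR-6413) have that of miR-24-3p. The 5p arms differ more, with 8 changes between miR-27a-5p and miR-27b-5p.

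The hairpins show how far the paralogs are alike over their whole length, and capitals mark the longest run that each shares with its paralog.
Mir23b: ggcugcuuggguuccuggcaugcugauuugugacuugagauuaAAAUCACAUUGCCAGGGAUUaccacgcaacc
Mir23a: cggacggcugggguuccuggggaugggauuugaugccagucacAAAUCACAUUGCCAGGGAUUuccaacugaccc
Mir27b: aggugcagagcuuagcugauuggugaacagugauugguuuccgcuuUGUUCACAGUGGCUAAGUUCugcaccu
Mir27a: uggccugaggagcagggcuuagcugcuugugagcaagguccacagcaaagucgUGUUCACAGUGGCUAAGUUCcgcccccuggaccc
Mir24-1: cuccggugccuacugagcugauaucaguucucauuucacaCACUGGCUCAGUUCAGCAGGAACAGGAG
Mir24-2: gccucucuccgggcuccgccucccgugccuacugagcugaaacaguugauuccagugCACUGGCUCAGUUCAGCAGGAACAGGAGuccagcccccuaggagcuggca

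The longest shared run was 20 bases for the Mir23 pair, 20 bases for the Mir27 pair and 28 bases for the Mir24 pair, where it covers the whole of miR-24-3p. Between hairpins of different families the longest run was 8 bases. Of the windows of 20 bases in each hairpin, 1 of 55 in Mir23b, 1 of 56 in Mir23a, 1 of 54 in Mir27b and 1 of 68 in Mir27a recurs in another annotated hairpin. For the Mir24 genes these are 9 of 49 windows in Mir24-1 and 11 of 88 in Mir24-2. Reads that mapped to several places made up 41.1% (replicate 1) and 39.9% (replicate 2) of reads, and the deposited tables assign them to no gene. The levels below are therefore those of uniquely mapped reads, and the number of miR-24-3p, miR-23 or miR-27 reads among the multiply mapped ones was not analysed here. The tables give 1 count per hairpin, so 5p and 3p arms are not separated.

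The loci differ in their surroundings. On mm10, Mir23b lies at chr13:63300484-63300557, Mir27b at chr13:63300712-63300784 and Mir24-1 at chr13:63301208-63301275, all on the plus strand (ENSMUSG00000065599.2, ENSMUSG00000065475.2 and ENSMUSG00000105904.1). The cluster spans 792 bases within the gene 2010111I01Rik (also named Aopep, an aminopeptidase gene) on the same strand, and within introns of Fancc on the opposite strand. Mir23b lies in an intron of 2010111I01Rik, whereas Mir27b and Mir24-1 lie whole within annotated exons of its transcripts. Those exons are 63300605 to 63300793, from a transcript annotated for nonsense-mediated decay, and 63301122 to 63301306.

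Mir23a lies at chr8:84208518-84208592, Mir27a at chr8:84208672-84208758 and Mir24-2 at chr8:84208815-84208921, also on the plus strand (ENSMUSG00000065611.1, ENSMUSG00000065444.1 and ENSMUSG00000065541.1). This cluster spans 404 bases and has no annotated host gene, apart from the lincRNA Gm26532, which begins 2 bases before the end of Mir24-2. A further microRNA gene is annotated on the strand opposite to each Mir24 gene, Mir3074-1 over all 68 bases of Mir24-1 and Mir3074-2 over 83 of the 107 bases of Mir24-2.

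Replicate 1 held 12701590 reads, with 5237062 of them counted for a microRNA gene in sense, and replicate 2 held 7126319, with 3026501 counted in this way. Levels are counts scaled to 1000000 of these sense, or own-strand, reads (CPM), and since the libraries hold RNA of about the length of a mature microRNA they were not divided by hairpin length. Intervals are exact 95% Clopper-Pearson intervals. They cover counting error only, as reads are not independent molecules. Among heart microRNAs, the myosin-hosted Mir208a stood at 1356 CPM in replicate 1 and 641 CPM in replicate 2. Mir499 stood at 3482 and 2486 CPM. The muscle genes Mir1a-1, Mir133a-2 and Mir133b had 4, 7 and 6 uniquely mapped reads in replicate 1. In replicate 2 they had 6, 1 and 5. They are named after their values were seen, and multiply mapped reads are not in their counts. The liver gene Mir122 stood at 55.9 CPM in replicate 1 and 70.4 CPM in replicate 2, and the skeletal muscle gene Mir206 at 7.83 and 20.5 CPM. Of the 6 neuronal Mir124a and Mir9 genes 5 had no read, but these are multi-copy genes with shared mature arms, so uniquely mapped counts give no check of their absence.

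The 6 genes together took 8.90% of counted reads in replicate 1 (interval 8.88 to 8.93) and 8.39% in replicate 2 (8.36 to 8.42), or 8.65% ± 0.362 (SD, n = 2). Nearly all of this was Mir23, which made up 90.8% of the reads of the 6 genes in replicate 1 and 96.4% in replicate 2. Mir27 made up 8.86% and 3.46%, and Mir24 made up 0.295% and 0.157%. The levels of uniquely mapped reads stepped down by family, from Mir23 over Mir27 to Mir24, in the same order in both libraries. The Mir24 counts leave out multiply mapped reads of miR-24-3p.

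Mir23b, which carries miR-23b, was the most abundant of the 6. It had 282875 reads (54014 CPM) in replicate 1 and 137690 reads (45495 CPM) in replicate 2. By uniquely mapped reads this placed it 5th and 6th among all microRNA genes. Genes whose reads mapped to several places can stand too low in this order. Mir23a had 140800 reads (26885 CPM) in replicate 1 and 107137 reads (35400 CPM) in replicate 2, at ranks 12 and 8. The 2 libraries of Mir23b, at 49754 ± 6024 CPM (SD, n = 2), lay above both libraries of Mir23a, at 31142 ± 6021 CPM.

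By CPM, the pair differed between the libraries in split but hardly in sum. Mir23b and Mir23a together held 80899 CPM in replicate 1 and 80894 CPM in replicate 2, or 80897 ± 3.51 CPM (SD, n = 2), while Mir23b was higher in replicate 1 and Mir23a in replicate 2. On the scale of total counts the log2 difference of the sum was 8.8e-05. After TMM scaling, which sets the libraries level over most genes, the sum was lower in replicate 1 by a log2 difference of -0.13 (counting interval -0.14 to -0.13).

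Mir27b, whose product miR-27b-3p differs from miR-27a-3p by 1 base, had 33824 reads (6459 CPM) in replicate 1 and 7151 reads (2363 CPM) in replicate 2. Mir27a had 7479 reads (1428 CPM) in replicate 1 and 1633 reads (540 CPM) in replicate 2. The fold of replicate 1 over replicate 2, after the scaling described below, was 2.49 for Mir27b and 2.41 for Mir27a, and the ranges of Mir27b and Mir27a did not overlap. Their means were 4411 ± 2896 CPM for Mir27b and 984 ± 628 CPM for Mir27a (SD, n = 2).

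Mir24-1 had 614 reads (117 CPM) in replicate 1 and 178 reads (58.8 CPM) in replicate 2. Mir24-2 had 760 reads (145 CPM) in replicate 1 and 221 reads (73.0 CPM) in replicate 2. Both were higher in replicate 1, and the means were 88.0 ± 41.3 CPM for Mir24-1 and 109 ± 51.0 CPM for Mir24-2 (SD, n = 2). The ranges of the 2 genes overlapped across libraries, but within each library Mir24-1 was the lower one by more than counting error, as the ratios below give. With reads of either strand counted together, both Mir24 genes have 0 reads in both libraries, because reads over Mir24 and Mir3074 are then counted as ambiguous, whereas the counts of the Mir23 and Mir27 genes are the same in both columns.

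**Figure D1:**
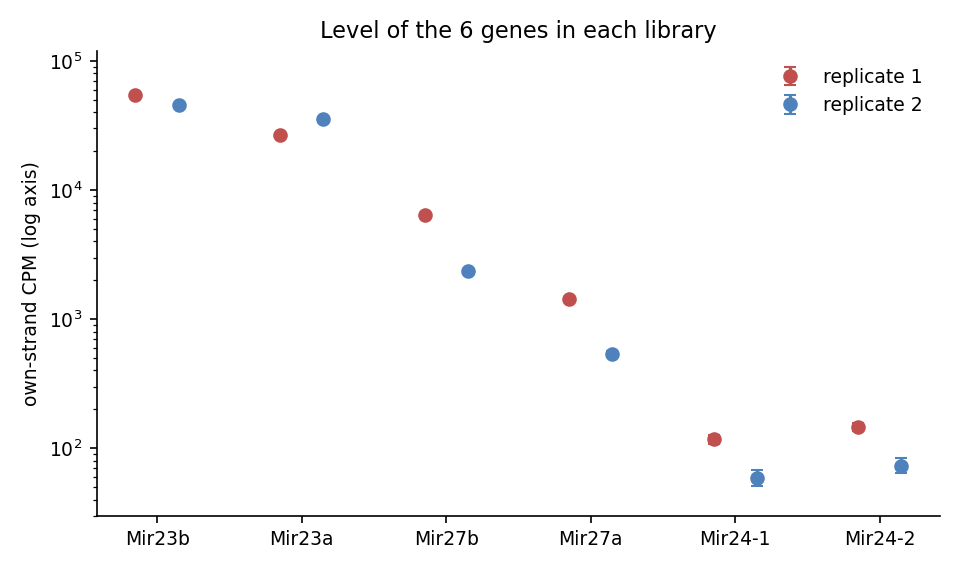
Own-strand CPM of each gene on a log axis, replicate 1 left of replicate 2, with exact 95% Clopper-Pearson intervals that are mostly smaller than the points. Levels of uniquely mapped reads step down from Mir23 (26885 to 54014 CPM) through Mir27 (540 to 6459 CPM) to Mir24 (58.8 to 145 CPM), and of the 6 genes only Mir23a is lower in replicate 1.

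Ratios within a library need no scaling between libraries. The Mir23b cluster held 2.13 times the reads of the Mir23a cluster in replicate 1 (interval 2.12 to 2.14) and 1.33 times in replicate 2 (1.32 to 1.34), or 1.73 ± 0.565 on average (SD, n = 2). These summed ratios are in effect those of Mir23b over Mir23a, which were 2.01 (2.00 to 2.02) in replicate 1 and 1.29 (1.27 to 1.30) in replicate 2.

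For the other pairs of paralogs the intervals of the ratio in the 2 libraries overlapped. Mir27b over Mir27a was 4.52 (4.41 to 4.64) in replicate 1 and 4.38 (4.15 to 4.62) in replicate 2, and Mir24-1 over Mir24-2 was 0.808 (0.725 to 0.900) in replicate 1 against 0.805 (0.657 to 0.986) in replicate 2. As the log2 change of the ratio, replicate 1 over replicate 2, this was 0.05 for the Mir27 pair (Wald counting interval -0.04 to 0.13) and 0.0044 for the Mir24 pair (-0.32 to 0.33). For the Mir23 pair it was 0.64 (0.63 to 0.66). The intervals of the Mir27 and Mir24 pairs include 0 and lie wholly below that of the Mir23 pair. By uniquely mapped reads, Mir27b exceeded Mir27a in both libraries while Mir24-1 was below Mir24-2 in both. The Mir24 counts leave out multiply mapped reads of the mature arm that is identical in both Mir24 genes. These counts therefore cannot show which of the Mir24 loci gave more of that arm.

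Neighbours in a cluster, by contrast, changed their proportions. For each Mir27a read there were 18.8 Mir23a reads in replicate 1 and 65.6 in replicate 2. For each Mir27b read there were 8.36 Mir23b reads in replicate 1 and 19.3 in replicate 2. The log2 change of the ratio of Mir27a over Mir23a was 1.80 (1.72 to 1.88) and that of Mir27b over Mir23b was 1.20 (1.17 to 1.24), both higher in replicate 1. The ratio of Mir24-2 over Mir27a changed by -0.41 (-0.64 to -0.18) and that of Mir24-1 over Mir27b by -0.46 (-0.70 to -0.21), and these 2 intervals overlap.

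**Figure D2:**
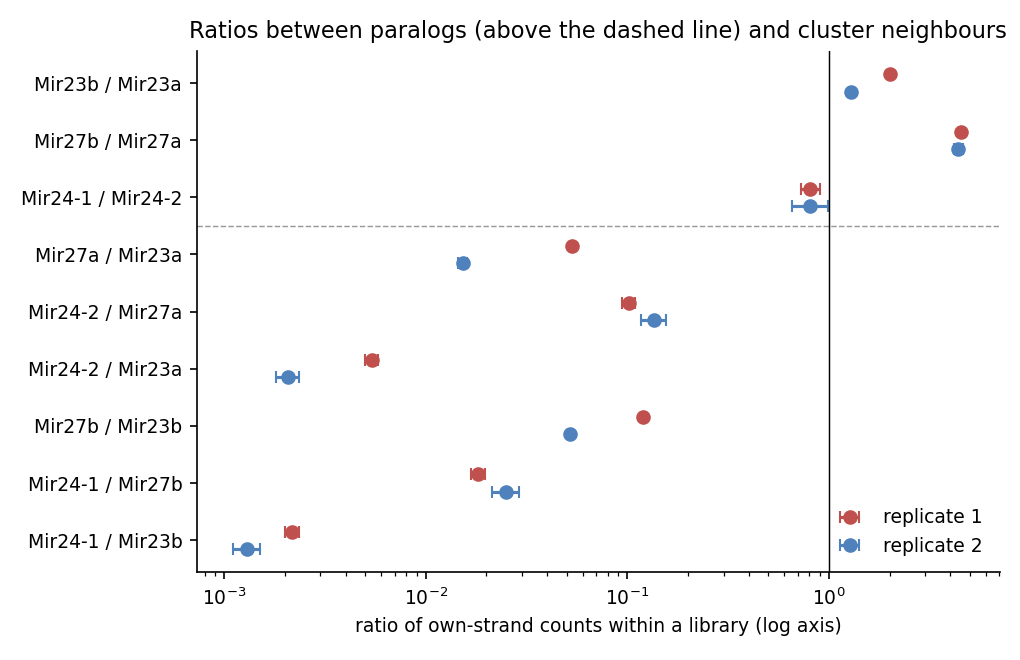
Ratios of own-strand counts within each library on a log axis, with exact 95% intervals from the binomial share. Above the dashed line are the 3 pairs of paralogs, where the Mir27 ratios (4.52 and 4.38) and the Mir24 ratios (0.808 and 0.805) lie close together between replicates and the Mir23 ratios (2.01 and 1.29) do not; below it are the 6 pairs of genes within a cluster, whose ratios all differ between replicates.

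Between libraries, after TMM scaling, the log2 difference of replicate 1 over replicate 2 was 1.32 for Mir27b (counting interval 1.28 to 1.35) and 1.27 for Mir27a (1.19 to 1.35). It was 0.86 for Mir24-1 (0.62 to 1.11) and 0.85 for Mir24-2 (0.64 to 1.08). For the Mir23 genes it was 0.11 for Mir23b (0.10 to 0.12) and -0.53 for Mir23a (-0.54 to -0.52). By uniquely mapped reads, the paralogs at different loci thus lay beside each other for Mir27 and for Mir24, and the genes of a shared cluster did not. miR-27a-3p and miR-27b-3p share their first 18 bases, and miR-24-3p is identical at both loci. Reads that mapped to both loci are not in these counts, and their part in this likeness was not tested. Total counts and DESeq2 size factors gave the same signs for all 6 genes.

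The libraries were tested against each other gene by gene with a two-sided exact binomial test, adjusted by Benjamini-Hochberg over 430 genes. This called 5 of the 6 genes higher and 1, Mir23a, lower in replicate 1. Of all genes tested it called 27.9% higher and 27.4% lower, or 55.3% in either direction. Among genes with at least 100 reads in sum, which include all 6, it called a larger share, 204 of 263. The median log2 difference was 0.86 over the 6 genes and -0.05 over all genes tested. This test compares the reads of these 2 libraries against counting error and not conditions. The adjusted p of this exact test was 8.3e-13 for Mir24-1 and 1.8e-15 for Mir24-2, and smaller for the genes with more reads. Among all 430 genes, 45 had a log2 difference at or above that of Mir27b. With edgeR's exact test at the spread estimated from both libraries (a biological coefficient of variation of 0.424), 0 of the 6 genes were called, against 0.930% of all genes. At an unadjusted p under 0.05 it gave 0 of the 6 and 24 of the 430 genes. That spread was estimated from the same 2 libraries and holds their difference. The test therefore calls few genes, and a gene not called is not shown to be alike in both libraries. At a fixed coefficient of 0.1 the same test called 5 of the 6, all but Mir23b, against 28.6% of all genes.

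**Figure D3:**
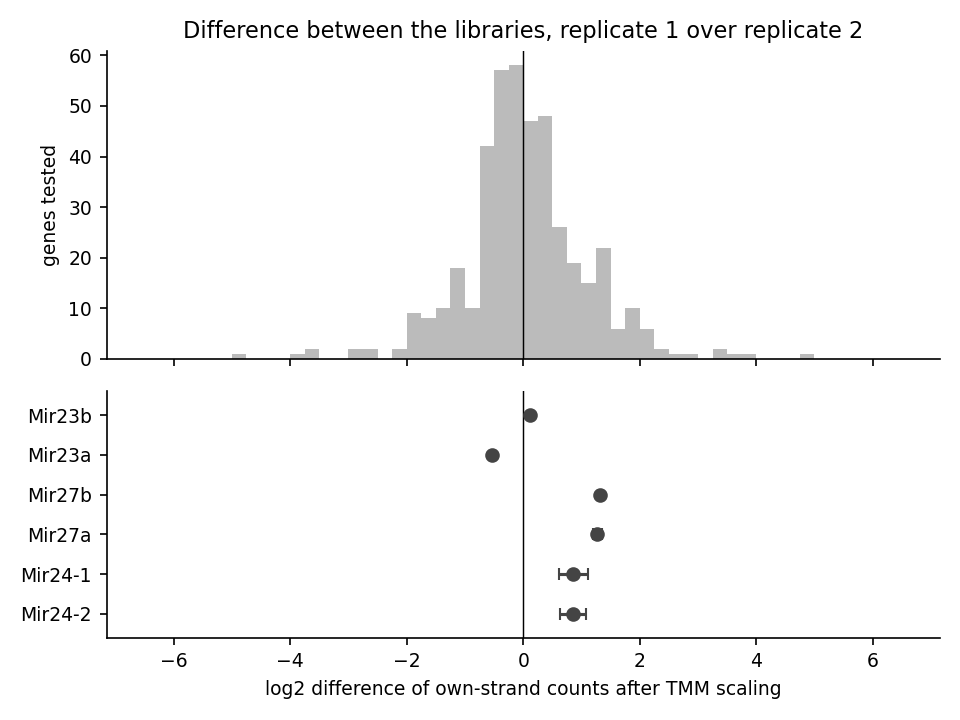
Log2 difference of own-strand counts after TMM scaling, replicate 1 over replicate 2, for all 430 genes tested (histogram, top) and for the 6 genes with exact counting intervals (bottom). Mir27b and Mir27a (1.32 and 1.27) lie together in the right shoulder of the distribution, Mir24-1 and Mir24-2 coincide at 0.86 and 0.85, and Mir23a (-0.53) lies left of 0.

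Marker microRNAs of the heart's cell types also differed between the libraries. The endothelial Mir126a stood at 42911 CPM in replicate 1 and 63991 CPM in replicate 2. The sum of the smooth muscle genes Mir143 and Mir145a was 30333 CPM in replicate 1 and 33879 CPM in replicate 2, with Mir143 lower in replicate 1 (29124 against 33002 CPM) and Mir145a higher (1209 against 877 CPM). That of the cardiomyocyte genes Mir208a, Mir208b and Mir499 was 5166 and 3415 CPM. The erythroid genes Mir451a and Mir144 had a summed level of 337 CPM in replicate 1 against 6972 CPM in replicate 2. The leukocyte genes Mir223, Mir142 and Mir150 had one of 898 CPM in replicate 1 and 523 CPM in replicate 2. These directions depend on the genes listed. Mir486, not listed as erythroid here, differed opposite to the erythroid sum, at 658 CPM in replicate 1 and 410 CPM in replicate 2. Mir155, listed below with the vascular genes, differed opposite to the leukocyte sum, at 1591 and 2619 CPM. Both are named after their values were seen. All 11 listed marker genes had reads in both libraries, and their part in the differences of the 6 genes was not tested. In whole tissue, fewer cells of a type and less RNA per cell cannot be told apart.

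A list of 27 microRNAs known from vessels and angiogenesis was set beside the clusters. Of these, 24 were tested, and 6 were higher, 16 lower and 2 not called in replicate 1, with a median log2 difference of -0.31. Over all genes tested 27.9% were higher and 27.4% lower. At the spread estimated from both libraries, edgeR's exact test called 0 of the 24, also at an unadjusted p under 0.05. As said above, that test calls few genes. With total counts 9 were higher and 14 lower. The 5 highest were Mir378a, from an intron of a metabolic coactivator gene, at 185593 CPM in replicate 1 and 182555 CPM in replicate 2, Mir126a (values above), Mir143 at 29124 and 33002 CPM, Mir100 at 5099 and 4860 CPM, and Mir34a at 3248 and 4291 CPM. By mean CPM, 2 of the 27 stood above Mir23b and above Mir23a, namely Mir378a and Mir126a, and 4 above Mir27b.

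The genes whose levels lay nearest to each member, by Euclidean distance of log2(CPM + 1) over the 2 libraries, came mostly from other loci. Mir143 (distance 0.153) and Mir99a (0.418) were nearest to Mir23a, and Mirlet7b (0.228) and Mirlet7d (0.367) to Mir23b. Mir195a (0.183) and Mir208a (0.258) were nearest to Mir27a, and Mir125a (0.527) and Mir15b (0.544) to Mir27b. Mir101b was the nearest gene to both Mir24-1 (0.165) and Mir24-2 (0.337). The second nearest was Mir24-2 itself for Mir24-1 (0.433) and Mir34c for Mir24-2 (0.422). With only 2 libraries this likeness is mostly one of level.

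The range of levels within each cluster was set beside that of other microRNA clusters, taken as runs of genes on the same strand with gaps of at most 10000 bases and with at least 3 detected genes. There were 12 such clusters. The highest gene exceeded the lowest by 461-fold in replicate 1 and 774-fold in replicate 2 in the Mir23b cluster, and by 185-fold and 485-fold in the Mir23a cluster. Over the 12 clusters the median was 128-fold in replicate 1 and 275-fold in replicate 2. In order of this ratio the Mir23b cluster was number 3 of 12 in both libraries, and the Mir23a cluster was number 6 in replicate 1 and number 5 in replicate 2. The lowest genes were Mir24-1 and Mir24-2, whose counts leave out multiply mapped reads of miR-24-3p. The ratios of both clusters may therefore be too high, and the same loss may affect other clusters.

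By summed level the Mir23b cluster (54253 CPM on average) and the Mir23a cluster (32235 CPM) were numbers 2 and 3 of the 12, after the cluster from Mirlet7d to Mirlet7a-1 at 57366 CPM. The log2 differences between libraries spanned 1.20 within the Mir23b cluster and 1.80 within the Mir23a cluster, against a median span of 1.23 over the 12. Over the 6 clusters with exactly 3 detected genes, these 2 included, the median span was 1.00, below both, and the median ratio of highest to lowest was 99.1-fold in replicate 1 and 150-fold in replicate 2. These are descriptions without a test.

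**Figure D4:**
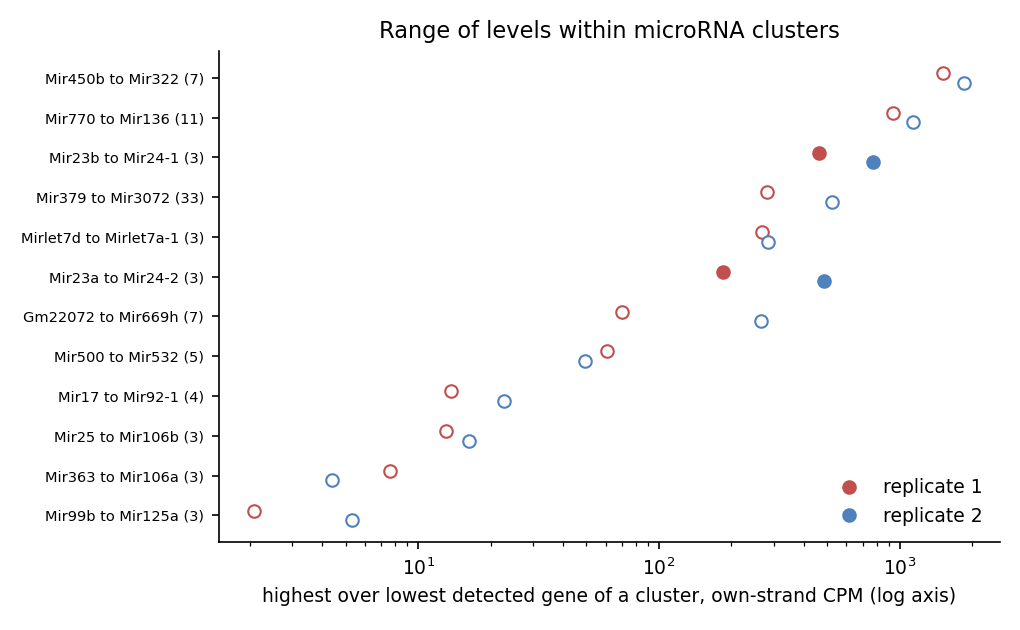
Ratio of the highest to the lowest detected gene, own-strand CPM on a log axis, in 12 microRNA clusters, with the number of detected genes in parentheses. Filled points are the Mir23b cluster (461 and 774) and the Mir23a cluster (185 and 485), and open points the other clusters. In order of this ratio the Mir23b cluster is number 3 in both replicates. The Mir23a cluster is number 6 in replicate 1 and number 5 in replicate 2. The lowest gene of both of these clusters is a Mir24 gene, counted without multiply mapped reads.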

How the data were processed

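Counts of microRNA reads in 2 heart samples of 1 group were used. Per the deposited readme, the authors made the counts per gene against mm10 with GENCODE M21. How reads were trimmed and aligned is not given in the sources used here. Deposited counts are whole numbers, not normalized, in 3 columns without a header (unstranded, own strand and opposite strand, as the values show), and the own-strand column was used. The 4 summary lines, with 58.8% (replicate 1) and 57.5% (replicate 2) of reads, stayed out of library sizes and tests. Another label gives the age in months, and the age field in days was used.

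Levels are CPM over all gene rows. Genes with at least 10 reads over the 2 libraries were tested with a two-sided exact binomial test, whose expected share came from library sizes scaled by TMM (edgeR 4.0.16, R 4.3.3), adjusted by Benjamini-Hochberg at 0.05, with 0.5 reads added for log2 differences. The test was tried on simulated Poisson counts, which hold counting error only. That trial cannot show how the test behaves where libraries vary beyond counting error. Alternatives included DESeq2 1.42.0 size factors and edgeR's exact test. Other software was matplotlib 3.10.9, scipy 1.17.1, numpy 2.4.6, pandas 2.3.3 and Python 3.11.15. The members, lists and tests were chosen with earlier results of these data known. Named were the 6 genes, genes that overlap them, the 2 nearest genes to each, the 5 highest vascular genes and the tissue markers. With 2 samples, p-values measure only the difference between these libraries, which may be technical in part.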

Additional observations from a re-analysis of the deposited data

Results flagged for a closer look

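Reads on the strand opposite to Mir24-1, which are those of Mir3074-1, were outside the comparisons and exceeded the 3 reads that a count of 0 allows. There were 10 in replicate 1 (1.91 CPM) and 78 in replicate 2 (25.8 CPM). They made up 1.60% of the 624 reads over Mir24-1 in replicate 1 (exact 95% interval 0.771 to 2.93) and 30.5% of the 256 reads in replicate 2 (24.9 to 36.5). Mir3074-2, opposite to Mir24-2, had 0 reads in each library, and such a count leaves room for a level of 0.573 CPM in replicate 1 and of 0.991 CPM in replicate 2. The own-strand count of Mir24-1 differed the other way, with 614 reads in replicate 1 and 178 in replicate 2. Mir3074-1 was 1 of 4 genes called by edgeR's exact test at the estimated spread (adjusted p = 0.0447), beside Mir451a, Mir185 and Mir26a-2, which are named after their values were seen.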

How the results depend on the processing

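The share of the 6 genes, 8.65% of own-strand gene reads, was 11.8% of unstranded gene reads, 3.62% of all reads, 10.6% without the most abundant gene, Mir378a, and 0.559% without the Mir23 genes. Each replicate alone gave 8.39% to 8.90%. The ratio of the Mir23b to the Mir23a cluster was 1.73, 1.33 to 2.13 with each replicate alone, and 4.07 without the Mir23 genes. The 2 settings without the Mir23 genes were added after seeing the data. Over all genes, 238 were called by the binomial test, 123 by edgeR's exact test at a coefficient of variation of 0.1 and 4 at the estimated spread (24 at an unadjusted p under 0.05). Of the 6 genes, 6, 5 and 0 were called by these tests. Total counts moved the share of calls higher in replicate 1 to 60.0%, against 50.4% with TMM, through a log2 shift of 0.13. Of 46 values of single members under other settings, 39 kept their direction and call, 7 lost the call in edgeR's exact test and 0 changed direction. Settings that only changed the filter on low counts or the reads added for log2 differences could hardly alter these values. Unstranded counts gave no value for the Mir24 genes. Counting error is small for all 6 genes, and the number of libraries limits the precision. No paired analysis was possible because the series has 1 group.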

Other observations

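RefSeq has a mature entry for 302 of the 335 detected genes, where detected means at least 10 reads in both libraries. Among genes with an entry, 94 have a mature arm that is identical to that of another gene, as the Mir24 genes do, and 40 of them were detected, with a median of 71.3 CPM. The 262 detected genes without an identical arm had a median of 74.3 CPM. Both medians leave out genes that were not detected, so they cannot show how many reads an identical arm loses. Among the 40, ordered by mean CPM, Mir24-2 stood 16th and Mir24-1 stood 20th. The 94 genes took 1.41% of counted reads in replicate 1 and 1.31% in replicate 2, and the highest of them was Mirlet7f-2 at 5540 CPM. Reads of such an arm that mapped to several places are not in these counts.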
